A study of Mus musculus with 8 samples.

Results

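The genes described are 9 genes of the aryl hydrocarbon receptor pathway in mSSC, a stromal cell line from mouse spleen. They were found by symbol in a table of 12589 genes, and all 9 named symbols, Ahr, Cyp1b1, Arnt, Ahrr, Tiparp, Cyp1a1, Aldh3a1, Hsp90ab1 and Ptges3, had 1 row each. The study treated the yfp-expressing line (mSSC-YFP) for 48 h with BMS493, which inhibits RA-signaling, or with DMSO as vehicle, with 4 cultures in each group. All cultures belong to 1 line grown in medium with serum, and the RNA was read by sequencing. The value used is 1 mean per gene that the authors took over the samples on the log2 scale after normalization, so DMSO and BMS493 cultures are merged in it. Single cultures were not analysed here, and no difference between BMS493 and DMSO, no spread between cultures and no depth per library is given. The members were selected on pathway and symbol with the authors' fold changes and p-values of these data known, and their levels are a description without a test.

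The aryl hydrocarbon receptor, encoded by Ahr, is a ligand-activated transcription factor of the bHLH-PAS family. Without ligand it is held in the cytosol by HSP90 and the co-chaperone p23 (encoded by Ptges3), and with ligand it enters the nucleus and pairs with ARNT on the xenobiotic response element. Its targets include the cytochrome P450 genes Cyp1a1 and Cyp1b1 and the aldehyde dehydrogenase gene Aldh3a1, and also Ahrr and Tiparp, whose products dampen the receptor. CYP1B1 also oxidises retinoids, which ties the pathway to retinoic acid synthesis.

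The sequence to which the receptor and ARNT bind holds the core GCGTG, and the promoters of 4 of its targets are shown because their genes lay far apart in expression. RefSeq promoter windows on GRCm38.p6 were available for 6 of the 9 genes, with 1 start each, and the 250 bases before each start were searched on both strands. Cyp1b1, Cyp1a1, Ahrr and Tiparp are printed 5′ to 3′ on the strand of the gene. Capitals mark the core, which reads CACGC where it lies on the opposite strand. The windows are chr17:79715062-79715311 for Cyp1b1 (minus strand), chr9:57697363-57697612 for Cyp1a1 (plus strand), chr13:74292332-74292581 for Ahrr (minus strand) and chr3:65528197-65528446 for Tiparp (plus strand).
Cyp1b1: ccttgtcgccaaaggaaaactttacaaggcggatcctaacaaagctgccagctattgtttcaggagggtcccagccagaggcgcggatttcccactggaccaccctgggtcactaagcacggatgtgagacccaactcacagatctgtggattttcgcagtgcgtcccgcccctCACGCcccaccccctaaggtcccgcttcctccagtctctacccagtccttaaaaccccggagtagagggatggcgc
Cyp1a1: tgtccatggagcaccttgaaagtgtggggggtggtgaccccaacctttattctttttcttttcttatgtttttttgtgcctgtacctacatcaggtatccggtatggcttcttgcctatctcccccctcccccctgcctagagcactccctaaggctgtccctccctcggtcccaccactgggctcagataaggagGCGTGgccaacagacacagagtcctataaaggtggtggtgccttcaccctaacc
Ahrr: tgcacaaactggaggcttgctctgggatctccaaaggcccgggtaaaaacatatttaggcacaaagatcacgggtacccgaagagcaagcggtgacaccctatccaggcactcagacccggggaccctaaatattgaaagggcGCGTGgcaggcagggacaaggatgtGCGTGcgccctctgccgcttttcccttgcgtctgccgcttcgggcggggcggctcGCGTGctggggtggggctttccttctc
Tiparp: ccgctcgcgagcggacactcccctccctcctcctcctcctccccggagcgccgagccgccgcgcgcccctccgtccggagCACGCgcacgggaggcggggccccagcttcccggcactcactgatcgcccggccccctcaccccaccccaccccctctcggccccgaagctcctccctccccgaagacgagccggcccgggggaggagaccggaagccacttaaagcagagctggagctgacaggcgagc

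Each of the 6 windows held the core. Ahrr had 3 copies, beginning 107, 82 and 27 bases before the start, all on the strand of the gene. Ptges3 had 2 copies, and Cyp1b1, Cyp1a1, Tiparp and Arnt had 1 each. The copy of Cyp1a1 began 54 bases before the start, that of Cyp1b1 lay 76 bases before it on the opposite strand, and that of Tiparp lay 170 bases before it, also on the opposite strand. The core is short and common in promoters rich in G and C. It was found in 28.2% of all 32851 promoter windows of this length and in 45.2% of the 11414 windows of genes with a value. Among the latter it was in 56.6% of windows with at least 60% G and C and in 33.2% of the others. The G and C content of the 6 windows ran from 53.6% for Cyp1a1 to 75.2% for Tiparp. Windows with 3 or more copies, as in Ahrr, made up 5.34% of those of genes with a value. The longer form TNGCGTG, which contains the core, was in the window of Ahrr and in 6.58% of windows of genes with a value. A form of the hypoxia core, ACGTG (in 21.8% of windows of genes with a value), was searched in the same way. So was AGGTCA, a form of the motif of retinoid receptors (in 10.4%). Neither was in any of the 6 windows, which says only that these exact letters are not in those 250 bases. Other forms of the motifs were not counted for these factors, so their sites may still be present.

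On the log2 scale of the authors' mean, the 9 genes covered 11.9 units, from a gene near the bottom of the table to 1 of its most abundant transcripts. Hsp90ab1 stood at 12.12 and was number 7 of the 12589 genes. Cyp1b1, at 7.51, was at percentile 91.6. Cyp1a1, at 0.53, and Ahrr, at 0.27, were at percentiles 3.73 and 2.07. The receptor gene Ahr lay below the median of all genes, which was 4.99. Of the 9 genes 4 lay above that median and 5 below it, and the median of the 9, 4.97, was close to it.

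**Figure D1:**
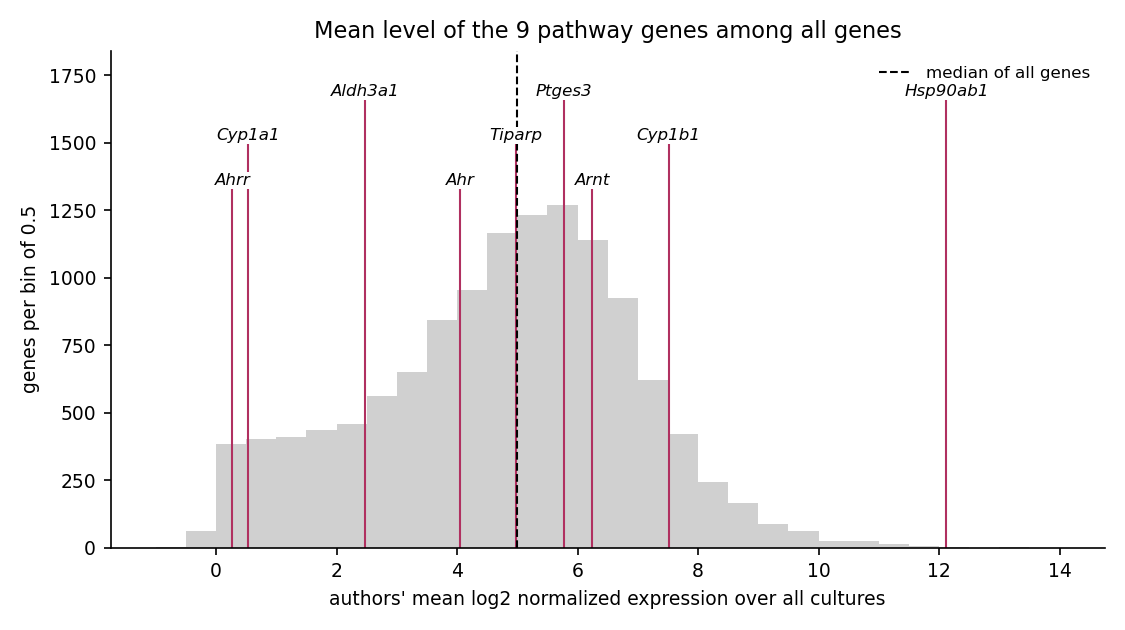
Histogram of the authors' mean log2 normalized expression over all cultures (x axis) for 12589 genes in bins of 0.5 (y axis, genes per bin). Red lines mark the 9 pathway genes and the dashed line the median of all genes, 4.99. Hsp90ab1 stands alone at 12.12, Cyp1b1 is in the upper tail and Ahrr and Cyp1a1 are at the lower edge.

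The receptor and its nuclear partner came first. Ahr (ENSMUSG00000019256) lies on chromosome 12 from 35497974 to 35535038 of GRCm38 on the minus strand, and its mean log2 level was 4.05, at percentile 34.4. Arnt (ENSMUSG00000015522), on chromosome 3 from 95434388 to 95497240, encodes the partner shared with the hypoxia-inducible factors and stood at 6.24, at percentile 74.7. Since longer transcripts gather more reads, genes were set against each other per kilobase of the longest annotated transcript. On that scale Arnt was 5.85 times as high as Ahr, and 3.51 and 4.64 times with the union of all exons or the coding length in its place. Ahr was at percentile 21.8 per kilobase and Arnt at 66.8. The partner transcript was thus the higher of the pair under every length used.

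The chaperones that hold the receptor in the cytosol were both above the median. Hsp90ab1 (ENSMUSG00000023944), the gene of the constitutive cytosolic HSP90 isoform, lies on chromosome 17 from 45567775 to 45573271. Its log2 level per kilobase was 10.79, at percentile 99.9. Ptges3 (ENSMUSG00000071072), on chromosome 10 from 128058954 to 128077272, had a mean log2 level of 5.77 and 4.77 per kilobase, the latter at percentile 77.8. HSP90 serves many client proteins, and per kilobase Hsp90ab1 was 592 times as high as Ahr and 65.0 times as high as Ptges3. With the coding length these ratios were 299 and 18.1. Ptges3 was 9.10 times as high as Ahr per kilobase, and 16.5 times with the coding length. A processed pseudogene, Ptges3-ps, is annotated on chromosome 6 from 85843980 to 85844459. Copies were looked for only by names built on the symbol, so copies of Hsp90ab1 or other members under other names would be missed. The authors counted uniquely mapped reads only, so reads that fit such copies equally well would be missing from the level of the parent gene, and the level of Ptges3 is uncertain to that extent.

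The target genes that encode enzymes lay far apart. Cyp1b1 (ENSMUSG00000024087), on chromosome 17 from 79701537 to 79715061, was the second highest of the 9 genes at 7.51, and per kilobase it was at 5.15 and percentile 83.2. Aldh3a1 (ENSMUSG00000019102), on chromosome 11 from 61207537 to 61218421, had a mean log2 level of 2.47 at percentile 17.0. Cyp1a1 (ENSMUSG00000032315), on chromosome 9 from 57687928 to 57703824, had 0.53. The P450 gene with the high level was thus Cyp1b1 and not Cyp1a1. Per kilobase Cyp1b1 was 66.6 times as high as Cyp1a1, with 60.4 for the union of exons and 122 for the coding length. It was also 11.9 times as high as the receptor gene itself and 11.1 times as high as Aldh3a1, and with the coding length 16.3 and 27.4 times. The promoter windows printed above held 1 core for each of the P450 genes, and sequence further upstream of these 250 bases was not searched. The Cyp1a1 window lies inside the annotated gene span given here, which begins further upstream than the RefSeq start. The windows of Tiparp, Ptges3 and Arnt also end a short way inside the annotated spans of those genes. No value for the remaining gene of the CYP1 family, Cyp1a2, was analysed here.

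The genes of the feedback loop also lay apart. Tiparp (ENSMUSG00000034640), on chromosome 3 from 65528410 to 65555518, encodes an ADP-ribosyltransferase that promotes loss of the receptor. Its mean log2 level of 4.97 was at percentile 49.8. Ahrr (ENSMUSG00000021575), on chromosome 13 from 74211118 to 74292331, encodes a repressor that competes with the receptor for ARNT. It was the lowest of the 9 genes at 0.27, and its promoter window held the most cores of the 6. Per kilobase Tiparp was 31.7 times as high as Ahrr, with 56.5 for the union of exons and 27.8 for the coding length. Ahr was 12.7 times as high as Ahrr per kilobase, with 21.1 for the union of exons and 12.0 for the coding length. The levels of Ahrr and Cyp1a1 are near the lowest value of the table, -0.58, and 6.80% of all genes were below a mean log2 level of 1. Whether the authors added a count before taking logs is not given in the sources used here, and an added count would raise such low levels, so ratios that involve Ahrr or Cyp1a1 are rough.

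Per kilobase of the longest transcript the order from high to low was Hsp90ab1, Cyp1b1, Ptges3, Arnt, Tiparp, Aldh3a1, Ahr, Cyp1a1 and Ahrr. Without scaling by length Arnt came before Ptges3 and Ahr before Aldh3a1. With the coding length Ptges3 came before Cyp1b1, at 6.83 against 6.81 on the log2 scale, and Ahr before Aldh3a1, at 2.78 against 2.03. With the union of exons the order was that of the longest transcript. Whether neighbours in this order differ by more than the spread between cultures cannot be said from a mean. In the annotation 3 of the 9 genes overlap another gene. Arnt overlaps the processed pseudogene Gm42672 on its own strand, Tiparp the pseudogene 4931440P22Rik and Ahr the lincRNA Gm48236, the latter pair on the opposite strand. None of the 3 had a value in the table.

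**Figure D2:**
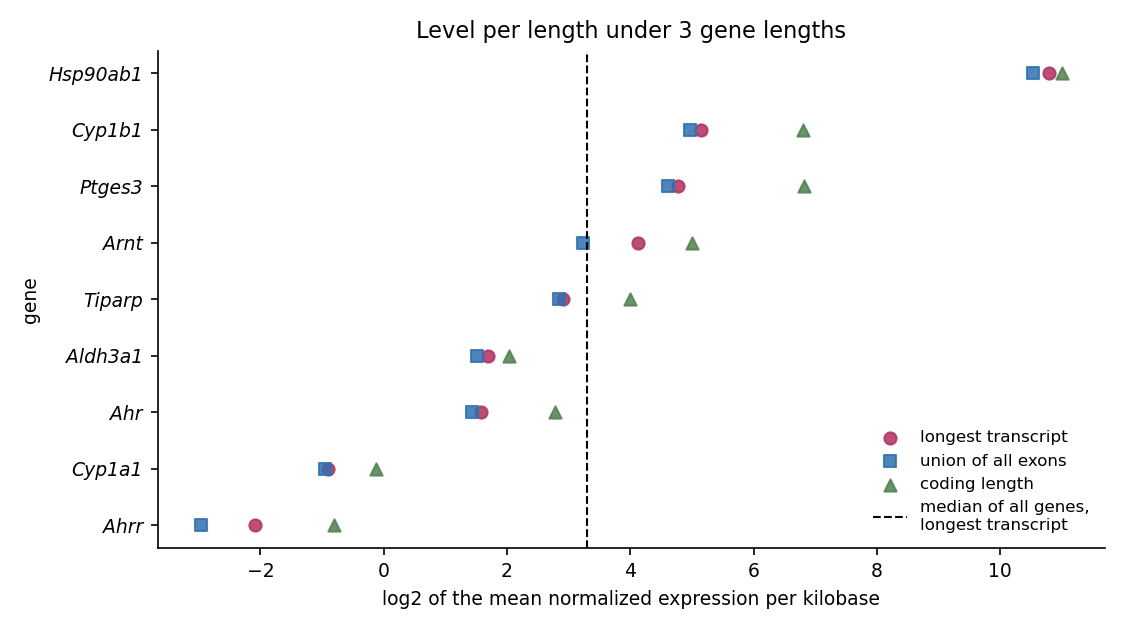
Log2 of the mean normalized expression per kilobase (x axis) for the 9 genes (y axis), scaled by the longest transcript (circles), the union of all exons (squares) or the coding length (triangles). The dashed line is the median of all genes per kilobase of the longest transcript, 3.30. Cyp1b1 and Cyp1a1 stay far apart under each length. Ahr and Aldh3a1 lie close together with the longest transcript and the union of exons. With the coding length Ahr is the higher, at 2.78 against 2.03.

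Further genes of the pathway were taken from lists that share some genes with each other and with the 9. In the cytosolic complex all 5 listed genes had a value, and 5 of 5 lay above the median of all genes. Besides Hsp90ab1 and Ptges3, the mean log2 levels were 8.23 for Hsp90aa1 (the inducible HSP90 isoform), 8.06 for the kinase co-chaperone Cdc37 and 7.25 for the kinase gene Src. The median of the list was 8.06, at percentile 95.2. The listed genes of the complex were all higher than the receptor gene, also per kilobase, where the lowest of the 5 was Ptges3 at 4.77 and Ahr stood at 1.58.

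A list of partners and relatives of the receptor held bHLH-PAS genes and also the period genes Per1, Per2 and Per3. Ahr and Ahrr were not in it. Of its 16 genes 12 had a value, and 4 of these lay above the median of all genes. The highest were Hif1a, the oxygen-regulated subunit that also pairs with ARNT, at 7.61 and Arnt at 6.24. Npas2 at 0.27 and Npas3 at 1.04 were the lowest of the list. The second ARNT gene, Arnt2, stood at 4.51, and per kilobase at 1.88 against 4.13 for Arnt. Hif1a was at 5.37 per kilobase, above both Arnt and Ahr.

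All 14 coregulator genes had a value, and 10 of them lay above the median of all genes, with a list median of 6.43. The chromatin remodeller gene Smarca4 (8.42) and the corepressor gene Ncor1 (8.30) were the highest, and the genes of the NF-kappaB subunit RELB (3.99) and of the cell cycle regulator RB1 (4.17) were the lowest. Per kilobase 8 of the 14 were above the median.

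The target gene battery had values for 16 of 21 genes, of which 8 lay above the median of all genes and 5 are among the 9 genes described here. Its median was 5.16, at percentile 53.4, so that as a list it was near the middle of the table while its members ran from 0.27 to 7.77. On the unscaled level Cdkn1a (7.77), the gene of a cyclin-dependent kinase inhibitor with many other regulators, and Cyp1b1 were the highest. Ahrr and Cyp1a1 were the lowest. Per kilobase Cyp1b1 (5.15) came after Cdkn1a (6.71), Gstm1 (6.60), Nfe2l2 (5.84) and Gsta4 (5.45). Among the 8 genes with a value in the feedback and turnover list, 5 lay above the median. The highest were Ddb1 (11.10), an adaptor of ubiquitin ligases, and Cyp1b1, and the lowest were again Ahrr and Cyp1a1.

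Microsomal P450 enzymes receive electrons from the P450 reductase and from cytochrome b5 with its reductase. Of 4 listed genes of these protein families, not all of them of microsomal proteins, 3 had a value under their current symbol. All 3 lay above the median: Por, the P450 reductase gene, at 7.03, Cyb5b at 7.91 and Cyb5r3 at 8.89. The fourth, Cyb5a, is listed under its older symbol Cyb5 at 7.89. Genes listed for making receptor ligands from tryptophan, with other enzymes of tryptophan metabolism among them, lay lower where they had a value. Of 11 listed genes 2 had a value, Afmid at 2.02 and Il4i1 at 0.84, and both lay below the median. Under older symbols Kyat1 (listed as Ccbl1) added 1.91 and Kyat3 (listed as Ccbl2) added 2.84. The table is the only source of these counts, and for the other genes of that list, Ido1 and Tdo2 among them, no value was analysed here.

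**Figure D3:**
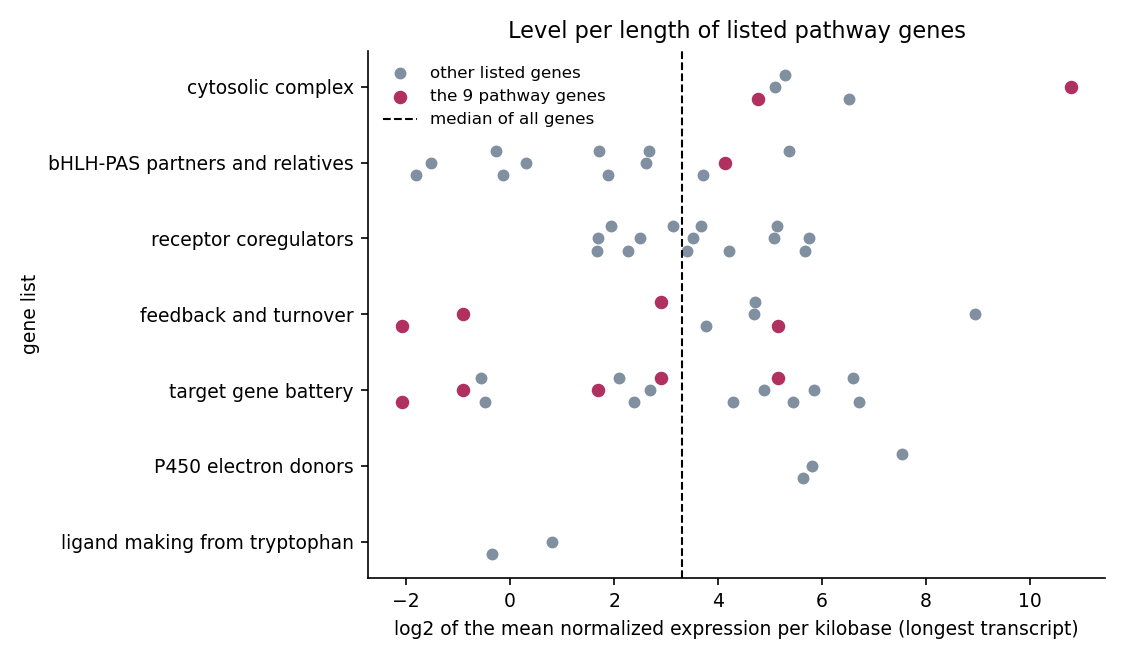
Log2 of the mean normalized expression per kilobase of the longest transcript (x axis) for the genes with a value in 7 lists of the pathway (y axis). Red points are members of the 9 genes, grey points the other listed genes, the vertical offset within a list only separates points, and the dashed line is the median of all genes, 3.30. The cytosolic complex and the electron donors lie to the right of the line, and the genes listed for making ligands from tryptophan to its left.

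The labelled cell type was checked against its markers. Of 15 stromal fibroblast markers all 15 had a value and 14 lay above the median of all genes, among them Col1a1 at 13.29, the highest value of the table, Vim at 11.78 and Cxcl12 at 11.11. Nt5e was the exception at 0.70. Per kilobase 13 of the 15 lay above the median, and Pdgfra, at 2.47, was then below it as well. None of the markers of B cells, T cells, erythroid cells or all leukocytes had a value. Of the 5 myeloid markers Cd68 had one (1.36), and of the 4 endothelial markers Kdr (2.83) and Pecam1 (0.47). The epithelial markers Krt8 and Krt18 were at 1.55 and 0.31, but Cdh1, the gene of E-cadherin, stood at 8.03, at percentile 95.1. Its part in the levels given here was not tested.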

How the data were processed

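RNA-seq was made from cultures of the mouse spleen stromal cell line mSSC-YFP treated with BMS493 or DMSO for 48 h, with 4 samples in each group. According to the study's methods and the submitters' processing notes, the authors used STAR 2.3.0e on mm10, took uniquely mapped reads on Ensembl genes (release 85) as counts with Rsubread, and normalized by the trimmed mean of M-values method. The authors' deposited table gives a mean log2 value per gene over all samples. Its other columns hold the authors' own comparison (log2 fold change, t, p and adjusted p) and were not used, and single cultures were not analysed here. Single-gene tests of BMS493 against DMSO had been planned for the case of values per culture and were not run.

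Decimal commas were converted on reading. Taken out of the log2 scale, the means add up to 989369 over the genes, close to the total of CPM values. The study's methods give an average yield over the samples, and the depth of each library is unknown. Gene positions and lengths were taken from GENCODE M21 (GRCm38, the assembly also named mm10), which gave a length for 93.5% of the rows. Levels per kilobase used the longest transcript, and the union of exons or the coding length as alternatives. Promoter windows came from RefSeq (GRCm38.p6), and motifs were counted on both strands in the 250 bases before each start. The members and the gene lists were chosen with earlier results of these data known. Named are the members and, from each list, all genes with a value where there were at most 6, otherwise the 2 highest and the 2 lowest. Arnt2, Per1, Per2, Per3, Gstm1, Nfe2l2, Gsta4, Kyat1, Kyat3, Cyb5a and the markers were named beside this rule, after their values were seen. In the lists, 2 genes are not reported here. Python 3.11.15 with numpy 2.4.6, pandas 2.3.3 and matplotlib 3.10.9 was used. The percentile and motif counts were tested on simulated data.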

Additional observations from a re-analysis of the deposited data

How the results depend on the processing

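No paired analysis was possible because the column used holds 1 mean per gene over all samples and no value per culture. For the same reason a fit with a replicate block and fits without 1 culture each were not run. A move of under 1 on the log2 scale or under 10 percentile points was taken as no change, since a mean has no spread to set a limit. With the union of exons all 9 levels per kilobase kept within that limit. With the coding length, which raised the median of all genes from 3.30 to 4.57, the log2 level per kilobase became 6.81 for Cyp1b1, 6.83 for Ptges3, 3.99 for Tiparp, 2.78 for Ahr and -0.80 for Ahrr. These rises follow from the shorter length by construction, and the percentiles per kilobase were then 87.2, 87.6, 38.6, 20.8 and 1.08. Among genes with a mean log2 level of at least 1, the percentiles of the 7 members left moved by less than the limit. Among those with at least 3, Tiparp was at percentile 35.9 and Ahr at 16.2, because fewer low genes were compared, and Aldh3a1, Cyp1a1 and Ahrr were left out by construction. Older symbols raised the genes with a value in the tryptophan list from 2 to 4, and the counts above the median did not move by over 1.5 times with the filter.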
